A study of Arabidopsis thaliana with 16 samples.

Results

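The plastid-encoded photosynthesis genes are the genes of the chloroplast's own genome that code for photosystem I, photosystem II, the cytochrome b6f complex, the ATP synthase, the NDH complex and the large subunit of rubisco. They were measured here in whole Arabidopsis thaliana seedlings in 3 light conditions and 2 genotypes. Members were taken by symbol: every probe set listing a single gene whose lower-case plastid symbol begins with psa, psb, pet or ndh, or is rbcL, atpA, atpB, atpE, atpF, atpH or atpI. This gave 43 of the 22746 probe sets on the array, out of 13513 that list a single gene. They comprise 5 genes of photosystem I, 15 of photosystem II, 6 of cytochrome b6f, 6 of ATP synthase, 10 of NDH and 1 of rubisco. The reference gene table holds 44 such genes. The one without a probe set of its own, ndhB, is listed only on a probe set shared by several genes and was left out. The symbols alone decide which probe sets are members, although this set of genes was picked for description with earlier results of these data known.

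Seedlings of the Col-0 wild type (WT) and of phyA-211, a null mutant of the photoreceptor gene PHYA in the Col-0 background (called phyA below), grew for 5 days in continuous white light and were then kept for 24 h in 1 of 3 lights. White light was about 45 µmol m-2 s-1 and was sampled with 2 arrays per genotype. Shade came from LEDs, whose red to far-red ratio was 0.7 (13 red, 3.5 blue and 21 far-red, in µmol m-2 s-1), with 3 arrays per genotype. Strong shade came from LEDs with the ratio lowered to 0.1 (3 red, 3.5 blue and 30 far-red, in the same unit), again with 3 arrays per genotype. White light and the shades therefore differed in lamp type as well as in ratio and photon flux. Each array is named below by genotype, light and replicate number, as in WT white 1, and strong shade is shortened to strong in those names. The labels do not say that replicates came from separate sowings, so p-values measure the spread between these arrays, which may be technical. PHYA has no probe set that lists it alone under a single symbol, the rule used here, so the mutant label was not checked against its own gene.

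Chloroplasts keep a small genome that codes for the core subunits of the photosynthetic complexes, while the nucleus codes for most peripheral subunits, the antenna proteins and the factors that transcribe and process plastid RNA. Plastid genes are largely transcribed as clusters of several genes and cut into shorter RNAs afterwards. Phytochrome A is the light receptor that acts in light rich in far-red, the kind of light found under a leaf canopy, and limits how far seedlings respond to it. RNA was amplified with a kit whose first primer is oligo(dT), which pairs with the poly(A) tail of nuclear messenger RNA. Plastid RNAs mostly lack a stable tail, and short tails on them mark RNA for decay. An intensity here is therefore that of the plastid RNA that was primed. A change in the amount of a plastid RNA and a change in how much of it was tailed or primed cannot be told apart, nor can fewer chloroplast-bearing cells and less RNA per cell.

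All values below are log2 of the deposited intensity. Array medians lay between 13.5 and 15.1 on the deposited linear scale, and the number of arrays limits the precision. Of the members, 41 lay above the level that marks the dimmest 40% of probe sets, a log2 intensity of 3.06. The other 2, petD and ndhF, lay below it in their mean over the 16 arrays. At the bright end, the means of psbM, psaB, ndhI, atpE and atpB lay at or above the 99.9th percentile of all probe sets. Whether probe sets that bright show changes in full was not tested. The median residual SD of the members was 0.179, against 0.172 for all probe sets. Among the phyA arrays, phyA shade 3 and phyA strong 3 stood apart from their groups. Over all probe sets, phyA shade 3 correlated more closely with phyA strong 1 and phyA strong 2 (r = 0.993 and 0.994) than with phyA shade 1 and phyA shade 2 (r = 0.986 for both). Likewise phyA strong 3 correlated more closely with phyA shade 1 and phyA shade 2 (r = 0.991 and 0.992) than with phyA strong 1 and phyA strong 2 (r = 0.983 and 0.979). Counts that rest on them are given with and without both of these arrays.

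The members did not move as a block. In WT shade 9 of 15 photosystem II genes and 3 of 10 NDH genes were called higher, in WT strong shade 8 and 3, and rbcL and psaJ were called lower in both. Of all members, 30.2% and 27.9% were called higher, against 16.9% and 18% of all probe sets. Called lower were 4.65% in both, against 19.6% and 21.2%. In phyA shade 7 members were called higher and 6 lower (16.3% and 14%, against 20.7% and 20.1% of all probe sets). In phyA strong shade these were 3 and 7 (6.98% and 16.3%, against 21.7% and 20.3%). All these phyA shares lay below those of all probe sets. Cytochrome b6f had no member called in any comparison and ATP synthase had 1, atpH, in phyA. The mean log2 intensity over the 43 members went from 8.03 in WT white light to 8.25 in shade and 8.30 in strong shade, and from 8.09 in phyA white light to 7.90 in strong shade.

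**Figure D1:**
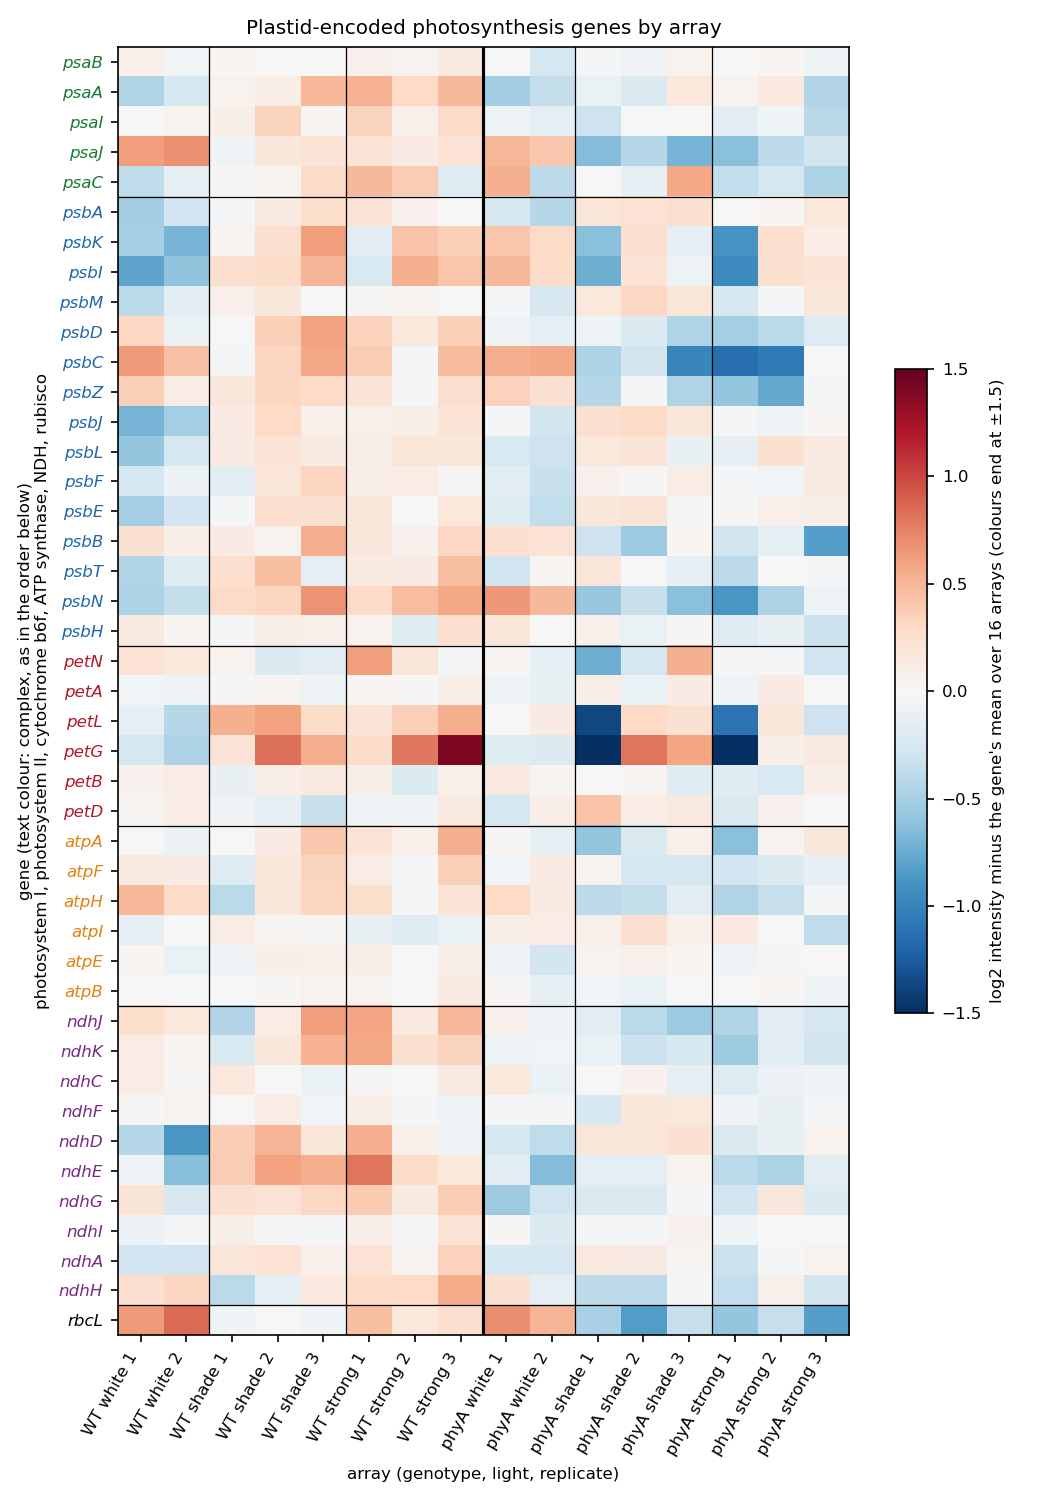
Log2 intensity of each of the 43 genes minus that gene's mean over the 16 arrays (colour, ending at 1.5 above and below), with arrays in columns by genotype, light and replicate and genes in rows by complex, in genome order within a complex. The rows of psbA and psbJ are blue in WT white light and near white or pale red in most WT shade columns, rbcL and psaJ are reddest in white light in both genotypes, and petG and petL are dark blue on phyA shade 1 and phyA strong 1.

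The response to shade was first compared in WT, as shade minus white light. Of the 43 members, 13 were called higher and 2 lower (limma adjusted p under 0.05), that is 30.2% and 4.65% of the members. Across all probe sets 16.9% were called higher and 19.6% lower, 36.4% in either direction. The median log2 difference of the members was 0.11, against -0.0198 for all probe sets. Photosystem II supplied 9 of the 13 rises, NDH supplied ndhD, ndhE and ndhA, and photosystem I supplied psaA. The falls were rbcL and psaJ. No member of cytochrome b6f or ATP synthase was called. Strong shade minus white light gave 12 members called higher and 2 lower, or 27.9% and 4.65% of the members. Across all probe sets these shares were 18% and 21.2% (39.2% in either direction). The member median was 0.20, against -0.0035. The calls were again 8 in photosystem II, ndhD, ndhE and ndhA, psaA, and the falls of rbcL and psaJ. These 2 comparisons share the WT white light arrays.

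Among the reaction-centre proteins of photosystem II, psbA codes for D1, the subunit that is damaged by light and replaced most often. Its log2 intensity was 8.80 and 9.03 on the WT white light arrays, 9.30, 9.45 and 9.58 in shade, and 9.52, 9.38 and 9.32 in strong shade. Every WT shade array was above both white light arrays. The difference was 0.53 ± 0.121 (SE) in shade and 0.49 ± 0.121 in strong shade (limma adjusted p = 0.00261 and 0.00389). Without WT white 1 the psbA calls were lost, at adjusted p = 0.0552 and 0.0733. The genes of the other large subunits, psbD for D2 and psbB and psbC for the inner antenna proteins, gave WT shade differences of 0.21, 0.08 and -0.25 and strong shade differences of 0.18, 0.02 and -0.26, none of them called.

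The cluster of psbE, psbF, psbL and psbJ, which lie next to each other, codes for the 2 chains of cytochrome b559 and a pair of small subunits at its side. For psbJ the WT arrays read 8.84 and 9.03 in white light, 9.66, 9.84 and 9.61 in shade, and 9.61, 9.63 and 9.75 in strong shade. For psbE they read 9.56 and 9.78 in white light, 10.04, 10.32 and 10.29 in shade, and 10.23, 10.07 and 10.22 in strong shade. In both genes the white light and shade arrays did not overlap. The differences in shade and strong shade were 0.77 ± 0.116 and 0.73 ± 0.116 for psbJ (limma adjusted p = 6.79e-05 and 9.79e-05). For psbE they were 0.55 ± 0.122 and 0.50 ± 0.122 (adjusted p = 0.00202 and 0.00342), the second lost without WT white 1 (adjusted p = 0.0612). The third gene, psbL, differed by 0.58 in both shades (adjusted p = 0.00275 and 0.00261; 0.0679 and 0.0649 without WT white 1). The fourth, psbF, differed by 0.28 and 0.24 and was not called.

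The small subunit genes psbK and psbI are also neighbours. For psbI the WT arrays read 8.88 and 9.07 in white light, 9.92, 9.94 and 10.18 in shade, and 9.44, 10.20 and 10.09 in strong shade. For psbK they read 9.87 and 9.67 in white light, 10.41, 10.61 and 10.99 in shade, and 10.21, 10.80 and 10.72 in strong shade. The white light arrays were the lowest in both genes. The differences were 1.04 ± 0.327 and 0.93 ± 0.327 for psbI (limma adjusted p = 0.02 and 0.0327) and 0.90 ± 0.306 and 0.80 ± 0.306 for psbK (adjusted p = 0.0298 and 0.0482). Each of these calls was lost without either WT white light array and without 1 or more other arrays, with adjusted p up to 0.168 for psbK in shade and 0.223 in strong shade, both without WT white 2. The remaining photosystem II calls were psbN, described below, psbT at 0.51 and 0.57, and psbM at 0.36 in shade. Without WT white 1 those of psbT had an adjusted p of 0.271 and 0.192 and that of psbM 0.301. In strong shade psbM differed by 0.31 (adjusted p = 0.0723), and its step from shade to strong shade was not called.

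In photosystem I, psaA and psaB code for the paired reaction-centre proteins. The WT arrays for psaA read 5.62 and 5.83 in white light, 6.12, 6.16 and 6.57 in shade, and 6.59, 6.36 and 6.55 in strong shade, all shade arrays being higher. The differences were 0.56 ± 0.182 and 0.77 ± 0.182 (limma adjusted p = 0.0249 and 0.00271), the first lost without WT white 1 (adjusted p = 0.182) or WT shade 3 (0.109). Its neighbour psaB differed by -0.01 and 0.06 (95% interval -0.23 to 0.21 and -0.16 to 0.28), and the psaA differences lay outside these intervals. The mean of psaB, 11.65, lay at the 99.9th percentile of all probe sets and its residual SD, 0.0722, at the 1.25th. Whether so bright a probe set could show a change of the size seen for psaA was not tested. The iron-sulphur protein gene psaC (0.37 and 0.48) and the small subunit gene psaI (0.13 and 0.21) were not called. The small subunit gene psaJ fell. Its WT arrays read 8.45 and 8.51 in white light, 7.77, 7.99 and 8.03 in shade, and 8.03, 7.94 and 8.04 in strong shade, without overlap. The differences were -0.55 ± 0.128 and -0.48 ± 0.128 (adjusted p = 0.00281 and 0.00711), the second lost without WT white 2 (adjusted p = 0.0558).

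The gene rbcL codes for the large, catalytic subunit of rubisco, the enzyme that fixes carbon dioxide. Its WT arrays read 9.51 and 9.72 in white light, 8.81, 8.87 and 8.82 in shade, and 9.32, 9.03 and 9.12 in strong shade. The shade arrays were the lowest, the strong shade arrays lay between, and no groups overlapped. The fall was 0.79 on the log2 scale in shade (-0.79 ± 0.161, limma adjusted p = 0.00102) and smaller in strong shade (-0.46 ± 0.161, adjusted p = 0.0328). The strong shade call was lost without either WT white light array, WT strong 2 or WT strong 3, with adjusted p up to 0.232. The step from shade to strong shade was 0.33 and was not called (adjusted p = 0.325).

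The NDH complex passes electrons from ferredoxin back to plastoquinone, and so takes part in cyclic electron flow around photosystem I. The membrane subunit genes ndhD, ndhE and ndhA rose in WT. For ndhD the arrays read 7.17 and 6.72 in white light, 7.96, 8.11 and 7.77 in shade, and 8.14, 7.67 and 7.54 in strong shade. For ndhE they read 4.63 and 4.05, then 5.07, 5.29 and 5.24, then 5.49, 4.96 and 4.85, and white light was again the lowest. The differences were 1.01 ± 0.174 and 0.84 ± 0.174 for ndhD (limma adjusted p = 0.000234 and 0.000944), 0.86 ± 0.205 and 0.76 ± 0.205 for ndhE (0.00345 and 0.00735), and 0.45 ± 0.125 and 0.49 ± 0.125 for ndhA (0.0101 and 0.00526). Both ndhE calls were lost without WT white 2 (adjusted p = 0.0953 and 0.167), and the shade call of ndhA without either WT white light array (0.0563 and 0.0535). The membrane subunit genes ndhC, ndhF and ndhG gave -0.04, -0.01 and 0.28 in shade and were not called. Of the peripheral arm, ndhH, ndhI, ndhJ and ndhK gave -0.42, 0.07, -0.11 and 0.09 in shade and 0.09, 0.16, 0.20 and 0.31 in strong shade, with no call.

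In cytochrome b6f, which links the photosystems, the genes of the large subunits moved little in WT. The shade and strong shade differences were 0.03 and 0.09 for petA, the gene of cytochrome f, -0.05 and -0.11 for petB, the gene of cytochrome b6, and -0.25 and -0.08 for petD, the gene of subunit IV. The small subunit genes petL and petG, which are neighbours, gave 0.74 and 0.64, and 0.88 and 1.18, without a call, and the third small subunit gene, petN, gave -0.30 and 0.07. The WT shade arrays of petL and petG nevertheless all lay above both white light arrays. For petG these read 4.38 and 4.18 in white light, 4.83, 5.46 and 5.18 in shade, and 4.91, 5.43 and 6.04 in strong shade. The spread estimate of petG, a residual SD of 1.02, lay at the 99.9th percentile of all probe sets. Fitted on the compared groups alone, both genes were called in both WT comparisons, petG at adjusted p = 0.00481 and 0.00498. In the ATP synthase no member was called: atpA, atpB and atpE of the catalytic head gave 0.22, 0.02 and 0.07 in shade, and atpF, atpH and atpI of the membrane part gave -0.03, -0.36 and 0.11.

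The WT counts rested in part on single white light arrays. Without WT white 1 the count of 15 called in shade became 7, and the count of 14 in strong shade became 8. Without WT white 2 the strong shade count became 9. The calls of rbcL, psbJ, psbE, psaJ, psbN and ndhD in shade, and of psaA, psbJ, psbN, ndhD and ndhA in strong shade, held whichever array was left out.

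**Figure D2:**
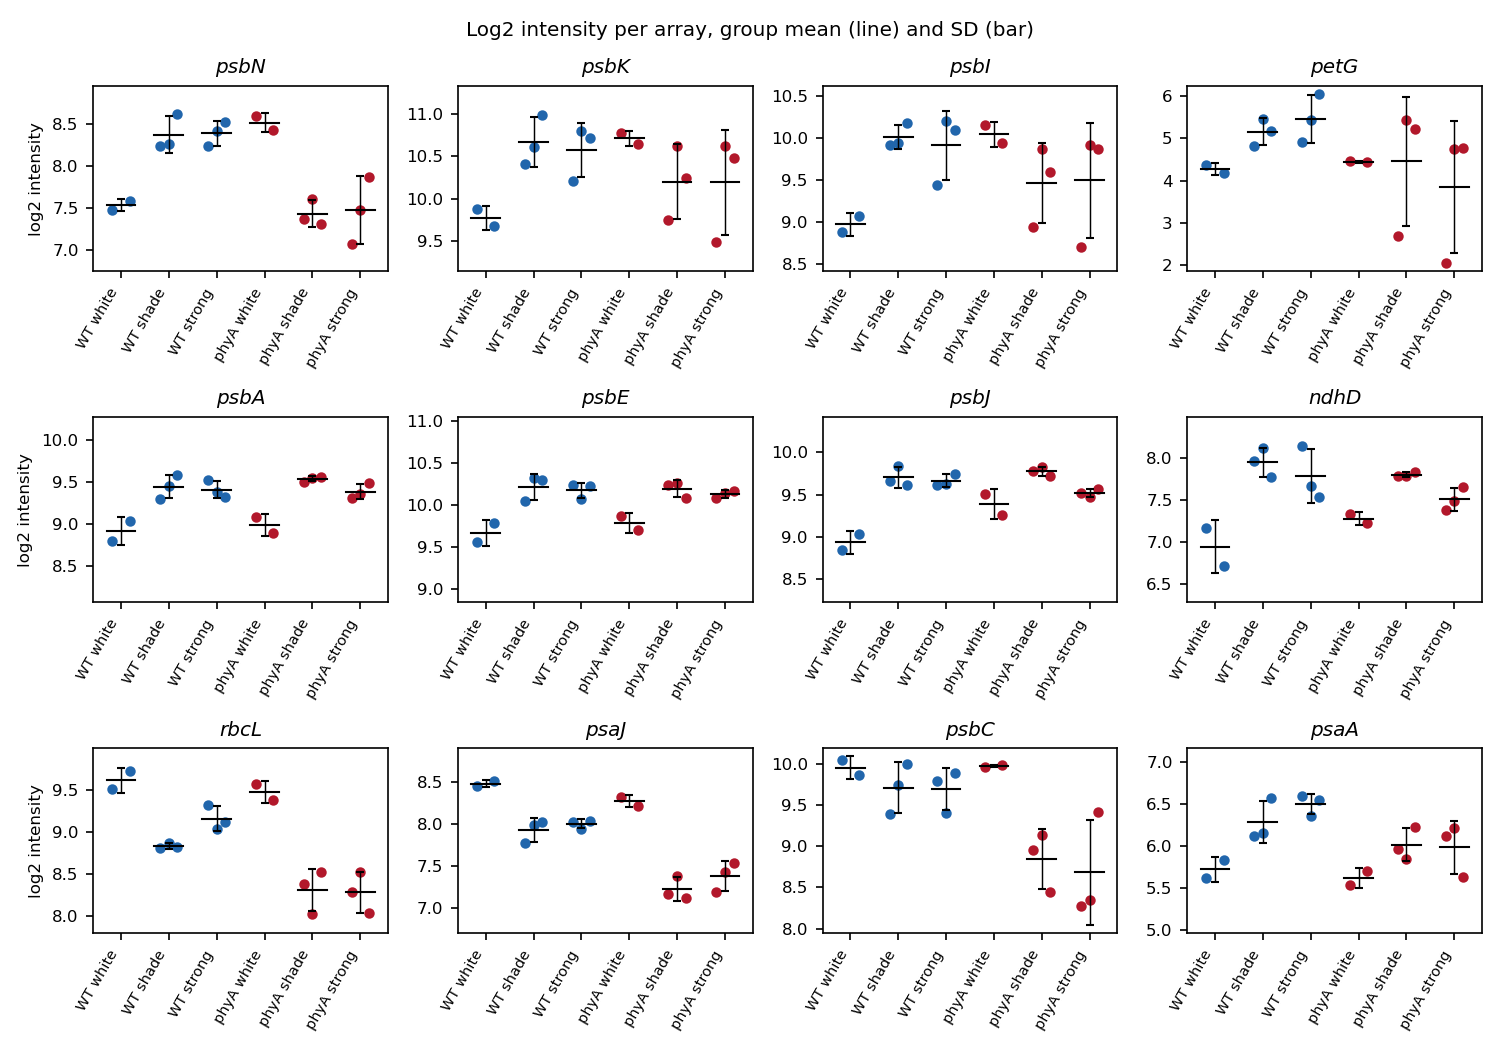
Log2 intensity of 12 members on each array (points; WT blue, phyA red), with the group mean as a line and the SD as a bar, for the 6 groups of 2 or 3 arrays. In psbN the WT shades lie above WT white light while the phyA shades lie below phyA white light, psbA and psbE rise in both genotypes, and rbcL and psaJ fall in both.

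The same comparisons within phyA gave a different balance. Shade minus white light called 7 members higher and 6 lower, or 16.3% and 14% of the members. Across all probe sets these shares were 20.7% and 20.1% (40.8% in either direction). The member median was 0.01, against 0.0283 for all probe sets. Strong shade minus white light called 3 higher and 7 lower, or 6.98% and 16.3%, against 21.7% and 20.3% of all probe sets (42% in either direction). The member median was -0.11, against 0.0437. The split depended on scaling. With each array centred on its median the counts were 11 higher and 5 lower in shade and 4 higher and 6 lower in strong shade, and with cyclic loess they were 1 and 7, and 0 and 10. The shares of all probe sets under other settings are not given here. Such counts therefore show only how the member calls depended on the setting. Without phyA shade 3 and phyA strong 3 the counts were 7 higher and 7 lower in shade, and 1 higher and 7 lower in strong shade. Leaving out phyA white 2 reduced the calls from 13 to 6 in shade and from 10 to 6 in strong shade. The shade count was 8 without phyA white 1 or phyA shade 1.

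All 7 members called higher in phyA in shade were among the 13 called higher in WT, which is 53.8% of the WT calls and 100% of the phyA calls. They were psbA, psbM, psbJ, psbL, psbE, ndhD and ndhA. In strong shade the 3 phyA rises, psbA, psbL and psbE, were 25% of the 12 WT rises. The 2 WT falls, rbcL and psaJ, were also called lower in phyA in both lights. One member, psbN, was called higher in WT and lower in phyA in both lights. The WT and phyA comparisons share no array. Over all probe sets, 88% of those called higher in WT shade were also called higher in phyA and 0.183% were called lower there, and in strong shade these shares were 83.6% and 0.928%. Of those called lower in WT, 80.4% in shade and 74.5% in strong shade were called lower in phyA too. Taken as a share of the phyA calls over all probe sets, 71.7% of the rises in shade and 69.2% in strong shade were also called in WT. For the falls these shares were 78.2% and 78%, against 33.3% and 28.6% for the members.

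The response of psbA was of like size in both genotypes. Its phyA arrays read 9.08 and 8.89 in white light, 9.50, 9.54 and 9.56 in shade, and 9.31, 9.35 and 9.48 in strong shade, all shade arrays being above white light. The differences were 0.55 ± 0.121 and 0.39 ± 0.121 (limma adjusted p = 0.00167 and 0.0159). The second was lost without phyA white 2 (adjusted p = 0.164). The phyA response minus the WT response was 0.02 in shade, with a 95% interval of -0.34 to 0.39, and -0.10 in strong shade, with an interval of -0.46 to 0.27. The other phyA rises in shade were 0.52 for ndhD, 0.35 for ndhA, 0.35 for psbL and 0.34 for psbM, and that of psbL in strong shade was 0.36; each was lost without phyA white 2, with adjusted p up to 0.34. For psbE the phyA differences were 0.41 and 0.35 (adjusted p = 0.13 and 0.23 without phyA white 2) and the response differences -0.13 (-0.50 to 0.23) and -0.15 (-0.52 to 0.21). For psbJ the phyA differences were 0.39 (adjusted p = 0.175 without phyA white 2) and 0.14, and the strong shade response difference of -0.59 had an adjusted p of 0.062.

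The members called lower in phyA were rbcL, psaJ, psbN, psbC, psbZ and atpH in both lights and psbB in strong shade. For rbcL the phyA arrays read 9.57 and 9.38 in white light, 8.38, 8.03 and 8.52 in shade, and 8.29, 8.52 and 8.04 in strong shade. For psaJ they read 8.32 and 8.22, then 7.17, 7.39 and 7.12, then 7.19, 7.43 and 7.54. In both genes every shade array lay below white light. The differences were -1.17 ± 0.161 and -1.19 ± 0.161 for rbcL (limma adjusted p = 2.24e-05 and 1.73e-05) and -1.04 ± 0.128 and -0.88 ± 0.128 for psaJ (6.94e-06 and 3.6e-05). These calls held whichever array was left out. The phyA response minus the WT response was not called for either gene, at -0.38 and -0.73 for rbcL (adjusted p = 0.623 and 0.0996) and -0.49 and -0.41 for psaJ (0.312 and 0.293).

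The inner antenna gene psbC lies between psbD and psbZ. Its phyA arrays read 9.96 and 9.98 in white light, 8.95, 9.14 and 8.44 in shade, and 8.28, 8.35 and 9.42 in strong shade. The lowest shade value was on phyA shade 3 and the highest strong shade value on phyA strong 3, the arrays that stood apart. The differences were -1.13 ± 0.293 and -1.29 ± 0.293 (limma adjusted p = 0.0053 and 0.00193). Without phyA shade 3 and phyA strong 3 they were -0.93 and -1.66, and strong shade then lay below shade by 0.73 (-0.73, adjusted p = 0.0434). The small subunit gene psbZ fell with it, by 0.59 and 0.75 (-0.59 and -0.75; adjusted p = 0.017 and 0.00344). The shade call of psbZ was lost without either phyA white light array, phyA shade 1 or phyA shade 3 (adjusted p up to 0.111). In strong shade psbB, the gene of the other inner antenna protein, differed by -0.65 (adjusted p = 0.0169), a call lost without either phyA white light array or phyA strong 3 (adjusted p up to 0.0846). The membrane-ring subunit gene atpH of ATP synthase gave -0.53 and -0.49 (adjusted p = 0.0345 and 0.0479), calls lost without phyA white 1 (0.193 and 0.233) and several other arrays. The response differences of psbC were -0.88 and -1.03 (adjusted p = 0.477 and 0.231) and those of psbZ -0.62 and -0.67 (0.402 and 0.21), none called with all arrays. No cytochrome b6f member was called in phyA.

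**Figure D3:**
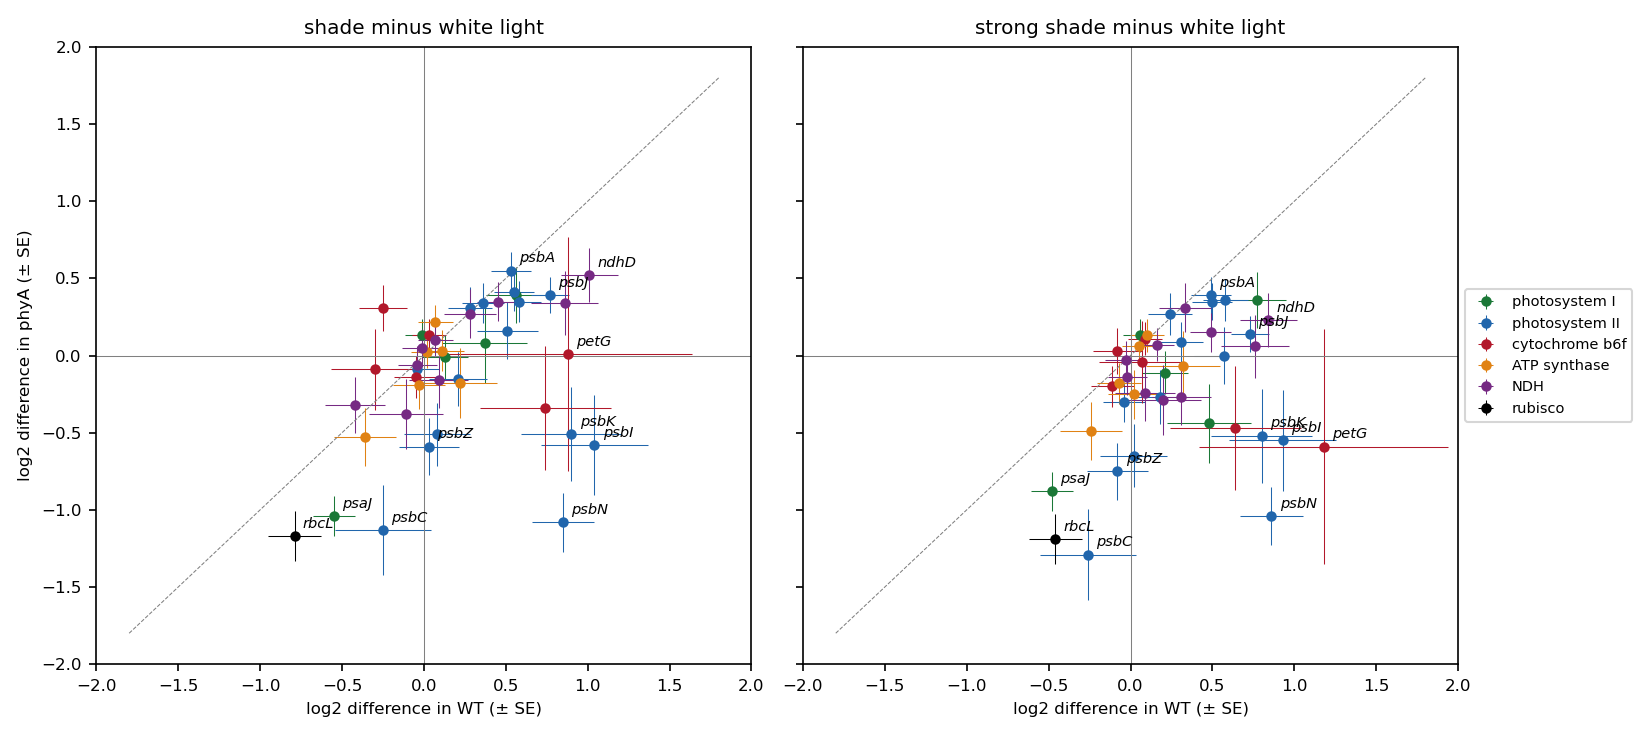
Log2 difference from white light in WT (horizontal) against phyA (vertical) for the 43 genes, in shade (left) and strong shade (right), coloured by complex, with bars of 1 SE and a dashed line of equal response. psbA lies close to the line, psbN, psbK and psbI lie to the lower right (higher in WT, lower in phyA), and rbcL, psaJ and psbC lie to the lower left.

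Among the 43 members the largest difference between the genotypes in response was that of psbN. The gene lies between psbT and psbH, and in tobacco its product is needed to assemble photosystem II rather than being a subunit of it. Its WT arrays read 7.48 and 7.58 in white light, 8.23, 8.26 and 8.62 in shade, and 8.23, 8.41 and 8.52 in strong shade. Its phyA arrays read 8.59 and 8.43 in white light, 7.37, 7.61 and 7.31 in shade, and 7.07, 7.48 and 7.87 in strong shade. The order of the groups was phyA white light (8.51 ± 0.112, SD), WT strong shade (8.39 ± 0.150) and WT shade (8.37 ± 0.215), then WT white light (7.53 ± 0.0704), phyA strong shade (7.47 ± 0.397) and phyA shade (7.43 ± 0.162). Within the upper 3 and within the lower 3 groups the means differed by less than the spread between arrays, and the upper and lower groups did not overlap.

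The rise of psbN in WT was 0.85 ± 0.191 in shade and 0.86 ± 0.191 under strong shade (limma adjusted p = 0.00223 and 0.00174). In phyA it fell by 1.08 and 1.04 (-1.08 ± 0.191 and -1.04 ± 0.191, adjusted p = 0.000226 and 0.00032). The phyA response minus the WT response was -1.93 ± 0.270 in shade and -1.90 ± 0.270 in strong shade (adjusted p = 0.00188 and 0.000608). Across all probe sets, 1.05% were called for this difference in shade (0.167% higher and 0.884% lower) and 3.66% in strong shade (1.12% and 2.55%). Of the members, psbN alone was called in either. Its 2 calls held whichever array was left out. Without phyA strong 1 the shade count was 2. The strong shade count was 2 without phyA strong 2 and 3 without phyA strong 3, and without phyA shade 3 and phyA strong 3 it was 3, with psbC (-1.40, adjusted p = 0.00358) and psbZ (-0.88, adjusted p = 0.0184) added. The neighbours of psbN on the genome did not show the same order. In WT psbT was called higher too, at 0.51 and 0.57 (calls lost without WT white 1), and psbH gave -0.04 in both shades, not called. In phyA psbT gave 0.16 and 0.00, and psbH gave -0.09 and -0.30, none called. Only gene order was read, which does not show that psbN is transcribed with them.

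In psbK and psbI, too, the WT differences from white light were above 0 and the phyA differences below 0, but WT white light was the lowest group, at a mean of 9.77 for psbK and 8.98 for psbI, and the response differences were not called with all arrays. Their phyA white light arrays read 10.78 and 10.65 for psbK and 10.15 and 9.94 for psbI, all above the WT white light arrays. In phyA shade psbK read 9.74, 10.62 and 10.24 and in strong shade 9.48, 10.62 and 10.48. In the same order psbI read 8.94, 9.87 and 9.59, then 8.71, 9.91 and 9.87. The low values were those of phyA shade 1 and phyA strong 1 in both genes. The response differences were -1.42 and -1.32 for psbK (limma adjusted p = 0.178 and 0.12) and -1.62 and -1.48 for psbI (0.138 and 0.101). Without the 2 low arrays, a choice made after their values were seen, the differences were -1.19 and -0.96 for psbK and -1.35 and -1.09 for psbI, and again not called. The shade difference of psbI was called without phyA strong 1 (adjusted p = 0.0422) and on the compared groups alone (0.036). In strong shade it was called with array weights (0.0287) and with the replicate block (0.0386), and that of psbK with array weights (0.0379).

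The same 2 arrays were low for petG and petL. For petG, phyA shade 1 read 2.70 against 5.44 and 5.23 on the other phyA shade arrays, and phyA strong 1 read 2.05 against 4.74 and 4.77. For petL they read 4.97 against 6.63 and 6.56, and 5.22 against 6.50 and 6.02. Without both arrays petG differed in phyA shade by 0.89 (adjusted p = 0.022). Whether these values belong to the RNA or to the arrays was not tested.

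Genotypes were then compared within each light. In white light no member was called by limma, against 0.0747% of all probe sets called higher and 0.0791% lower in phyA (0.154% in either direction), and 5 members had an unadjusted p under 0.05. The share of all probe sets at that unadjusted threshold is not given here or below, so such counts are not read as an excess. The largest differences were psbI 1.07 (95% interval 0.30 to 1.83), psbN 0.98 (0.54 to 1.43) and psbK 0.94 (0.23 to 1.65), all higher in phyA and without overlap between arrays. The adjusted p of psbN was 0.116. It became 0.0301 without phyA strong 3, 0.044 without phyA strong 1 and 0.0248 without phyA shade 3 and phyA strong 3, and rose to 0.512 without phyA white 1. The member median was -0.04, against -0.0372.

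In shade 2 members, or 4.65%, were called lower in phyA and none higher, against 3.59% and 1.19% of all probe sets (4.77% in either direction). These were psbN, at -0.95 ± 0.171, and psaJ, at -0.70 ± 0.115 (limma adjusted p = 0.00287 and 0.00134). Both calls held whichever array was left out. A further 10 members had an unadjusted p under 0.05, which gives 12 in all, again without the share of all probe sets. Among those not called, psbC differed by -0.86, psbD by -0.56, psbZ by -0.56, ndhE by -0.58 and rbcL by -0.52 (adjusted p = 0.052). The count was 6 without WT shade 1 or phyA strong 3, 4 without phyA strong 2 and 5 without phyA shade 3 and phyA strong 3.

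In strong shade 12 members were called lower in phyA and none higher, against 6.26% and 5.43% of all probe sets (11.7% in either direction). That is 27.9% of the members. The median was -0.38 against 0.022 for all probe sets, and 42 of 43 members were below 0. The calls were psaJ and psaI in photosystem I, psbN, psbC, psbD, psbZ and psbB in photosystem II, ndhE, ndhK, ndhJ and ndhH in NDH, and rbcL. No member of cytochrome b6f or ATP synthase was called, with 2 members of each at an unadjusted p under 0.05.

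The cluster of psbD, psbC and psbZ was lower throughout. For psbD the WT strong shade arrays read 8.76, 8.58 and 8.78 and the phyA arrays 7.91, 8.01 and 8.22, without overlap. The differences were -0.66 ± 0.157 for psbD, -1.01 ± 0.262 for psbC and -0.61 ± 0.165 for psbZ (limma adjusted p = 0.0114, 0.0183 and 0.0229). In psbC the arrays overlapped, phyA strong 3 at 9.42 being above WT strong 2 at 9.40, and without phyA shade 3 and phyA strong 3 its difference was -1.38. For rbcL the difference was -0.87 ± 0.144 (adjusted p = 0.000647), for psbN -0.92 ± 0.171 (0.00181), for psaJ -0.62 ± 0.115 (0.00179) and for its fellow small subunit psaI -0.45 ± 0.126 (0.0294).

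Of the 4 NDH genes, ndhJ, ndhK and ndhH code for the peripheral arm that takes up electrons, and ndhJ and ndhK are neighbours. For ndhK the WT strong shade arrays read 9.09, 8.75 and 8.85 and the phyA arrays 7.98, 8.34 and 8.24. Neither ndhK nor ndhJ overlapped between the genotypes. The differences were -0.71 ± 0.161 and -0.70 ± 0.204 (limma adjusted p = 0.00799 and 0.0345). The other calls were -0.57 for ndhH (0.0329) and -0.75 for the membrane subunit gene ndhE (0.0126). The fourth peripheral gene, ndhI, differed by -0.14 (95% interval -0.34 to 0.07), and ndhC, next to ndhK, by -0.16 (-0.38 to 0.07).

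The strong shade count was 5 without WT strong 1, WT strong 3 or phyA strong 1, and 9 without phyA shade 3 and phyA strong 3. Without phyA shade 1 and phyA strong 1 together it was 3. The calls of rbcL, psaJ and psbN held whichever array was left out, as did that of ndhK (adjusted p up to 0.0448), which was lost without phyA shade 1 and phyA strong 1 together (0.0536). Those of psbD, psbC, psbZ, ndhJ, psaI, psbB, ndhE and ndhH were lost without 1 or more arrays, with adjusted p up to 0.178.

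**Figure D4:**
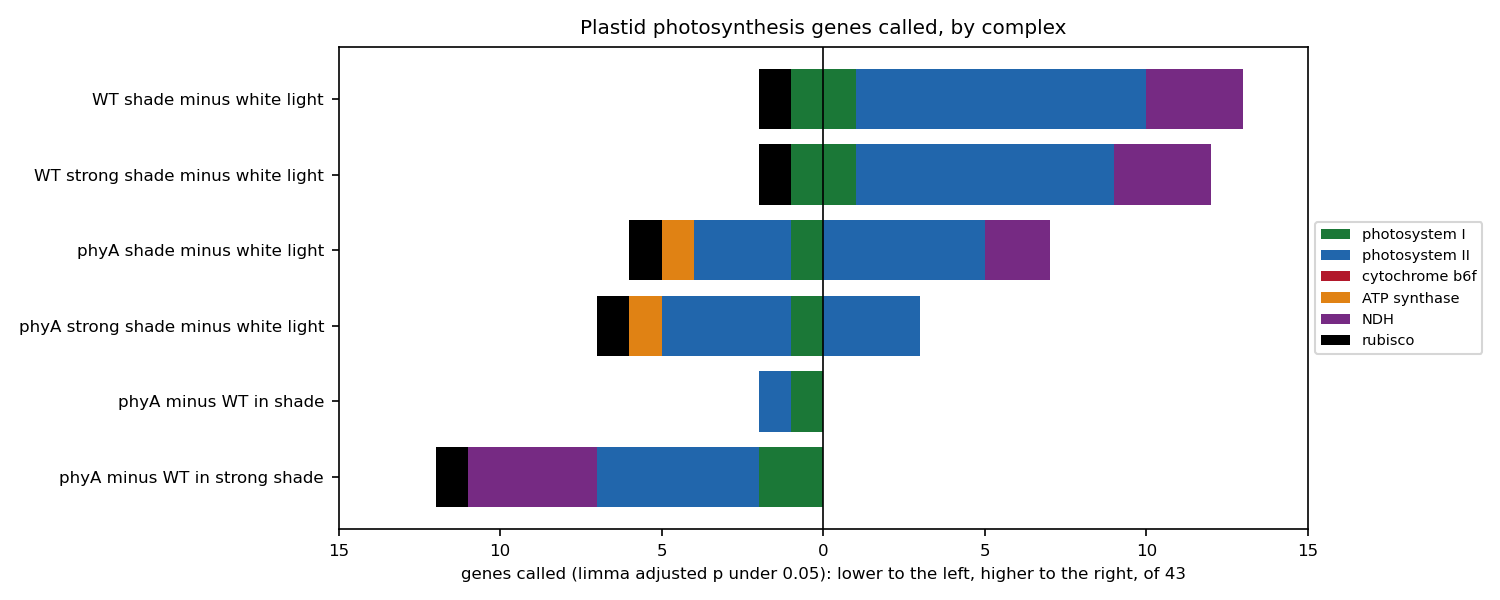
Number of the 43 genes called lower (left of 0) and higher (right of 0) in 6 comparisons, stacked by complex. WT bars reach 13 and 12 to the right in shade and strong shade, phyA bars reach 6 and 7 to the left, and the genotype comparisons have 2 and 12 genes to the left and none to the right.

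The step from shade to strong shade was not called for any member in WT, against 0.659% of all probe sets (0.268% higher and 0.391% lower), or in phyA, where no probe set was called (0%). In each, 2 members had an unadjusted p under 0.05. The difference between genotypes in this step was also called for no member and no probe set (0%), with 1 member at an unadjusted p under 0.05. Without phyA shade 3 and phyA strong 3 1 member, psbC, was called in the phyA step, as given above.

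The other plastid genes and the nuclear partners give a setting for these values. Of 26 probe sets for other plastid genes, 1 was higher and 5 lower in WT shade, 3 and 6 in WT strong shade, and 0 and 7 in each phyA shade. The shares called lower were 19.2%, 23.1%, 26.9% and 26.9%, against 19.6%, 21.2%, 20.1% and 20.3% of all probe sets. Those called higher were 3.85%, 11.5%, 0% and 0%, against 16.9%, 18%, 20.7% and 21.7%. Between the genotypes in strong shade 5 of the 26 were lower in phyA and none higher. That is 19.2%, against 6.26% of all probe sets, with a median of -0.23 and 22 of 26 below 0. In shade 1 of the 26 was lower, or 3.85%, against 3.59% of all probe sets. Genes beside members could move the same way or the opposite way. The ribosomal protein genes rpl33 and rps18, which follow psaJ, fell with it in phyA shade by 1.15 and 0.97 (-1.15 and -0.97; limma adjusted p = 7.85e-05 and 0.000438). The maturase gene matK and the ribosomal protein gene rps16, which lie between psbA and psbK, gave -0.75 and -1.35 in WT shade (adjusted p = 0.000427 and 4.03e-07), where psbA and psbK rose. Next to rbcL, accD, which codes for a subunit of the enzyme that starts fatty acid synthesis, rose by 0.52 in WT shade (adjusted p = 0.0228). Of 23 mitochondrial probe sets, also from RNAs that mostly lack stable tails, 1 was higher in WT shade, 4 were higher and 1 lower in WT strong shade, 6 and 1 in phyA shade, and 6 and 0 in phyA strong shade. The shares higher were 4.35%, 17.4%, 26.1% and 26.1% and those lower 0%, 4.35%, 4.35% and 0%, against the same shares of all probe sets. The median log2 intensity of the mitochondrial probe sets lay between 2.25 and 2.71 on every array, low on the scale of these arrays.

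Of 66 listed nuclear genes for the same complexes and the antenna, 13 were kept. A gene was kept if a probe set listed it alone, under a single symbol, and its listed name matched the reference table. In WT shade 1 of these was higher and 7 lower, in WT strong shade 1 and 7, in phyA shade 1 and 10, and in phyA strong shade 1 and 12. The shares lower were 53.8%, 53.8%, 76.9% and 92.3%, against 19.6%, 21.2%, 20.1% and 20.3% of all probe sets. The share higher was 7.69% in each, against 16.9%, 18%, 20.7% and 21.7%. The medians of the 13 were -0.44, -0.40, -1.01 and -1.19. The one that rose was ATPC2, a second gene for the ATP synthase gamma subunit, at 0.74 in WT shade and 1.42 in phyA shade, while the main gamma subunit gene ATPC1 fell by 0.67 and 1.27 (-0.67 and -1.27; limma adjusted p = 0.00128 and 2.37e-06). In strong shade 10 of the 13 were lower in phyA than in WT, or 76.9%, against 6.26% of all probe sets, with a median of -0.74. No nuclear electron transport gene and no gene of the plastid transcription or RNA maturation lists was kept by this rule, which does not mean that the array lacks them.

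The nuclear NDH genes NdhN and NdhL code for proteins of the same arm as ndhH, ndhJ and ndhK. For NdhN the WT arrays read 8.27 and 8.29 in white light, 7.06, 7.20 and 7.18 in shade and 7.71, 7.41 and 7.78 in strong shade. The phyA arrays read 8.01 and 7.92, then 3.98, 4.21 and 3.67, then 3.60, 3.78 and 4.70, far below all other groups in both shades. The phyA minus WT difference in strong shade was -3.61 ± 0.218 for NdhN and -2.10 ± 0.122 for NdhL (limma adjusted p = 3.04e-08 and 2.28e-08), where ndhK and ndhJ differed by -0.71 and -0.70. Rubisco activase, RCA, which keeps rubisco in its active form, differed by -1.49 ± 0.155 (7.2e-06), where rbcL differed by -0.87. The relation of these nuclear values to those of the plastid genes was not tested.

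Markers of tissue were read on the same arrays. Of 6 green tissue markers 2 were kept by the same rule, LHCB4.1 and RCA, both also on the partner lists. Their mean log2 intensity was between 11.73 and 11.91 on the white light arrays, between 11.53 and 11.69 on the WT shade and strong shade arrays, and between 10.73 and 11.12 on those of phyA. No green marker was called in WT shade, and LHCB4.1 was called in WT strong shade (-0.40, limma adjusted p = 0.0239). The lower phyA means were mostly those of RCA: phyA minus WT in shade and strong shade was -1.06 and -1.49 for RCA, both called, and -0.14 and -0.16 for LHCB4.1, not called. The 3 root markers, PYK10, EXPA7 and EXPA18, had a mean between 6.57 and 6.79 on the white light arrays and between 5.01 and 6.02 on the shade and strong shade arrays of both genotypes. Of these 3, 2 were called lower in WT shade, EXPA7 and EXPA18, and all 3 in the other comparisons with white light. In the shades the group means of EXPA7 and EXPA18 were 2.58 to 3.37, near or below the dimmest-40% level of 3.06. The size of their falls is therefore uncertain. Those of PYK10 were 10.01 to 10.61. Across all probe sets 19.6% to 21.2% were called lower in the comparisons with white light. No dry seed marker was kept by the rule. The part of the marker tissues in the members' values was not tested.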

How the data were processed

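The authors deposited one intensity value per probe set and array, made with RMA in affy per the submitters' processing notes; no version or probe-level setting is given there. The deposited intensity values were read as linear, from their range of 2.33 to 6170, and log2 was taken without a pseudocount. Probe sets were named through the platform annotation, and names and gene order came from the TAIR10.1 reference table, to which 13436 of 13513 single-gene probe sets matched. Limma 3.58.1 in R 4.3.3 fitted 1 mean for each of 6 groups over 16 arrays (10 residual degrees of freedom), with eBayes and 12 comparisons. P-values were adjusted per comparison by Benjamini-Hochberg across the 22746 probe sets, and a call is an adjusted p under 0.05. All adjusted p-values are limma's, and ± gives the SE of a difference or the SD of a group. The fit was tested on simulated data, with log2 changes of 0.5, 1, 2 and -1 given to 50 of 22746 probe sets each. In WT shade minus white light 18%, 84% and 72% of the changes of 0.5, 1 and -1 were called. In phyA minus WT in strong shade these were 40%, 84% and 94%, and for the strong shade response difference 6%, 44% and 44%. In the data more probe sets were called in these comparisons (36.4%, 11.7% and 3.66%), so the cut-off on unadjusted p was looser than in the simulation. The simulated shares therefore do not give how often such changes would be called here. A member not called was still not shown to be unchanged. Every member could be named with its levels; in each comparison the members with the largest differences per complex, those named before, rbcL, psbA, psaA, psaB and, where under 6 were called, every called member were to be named. Members and lists were chosen with earlier results of these data known. Other scalings, filters, variance models, sample sets, a replicate block and the omission of each array were tried.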

Additional observations from a re-analysis of the deposited data

Results flagged for a closer look

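Each result here is a phyA response that differed from the WT response by limma's test of the difference itself, with all 16 arrays in the fit. Among the plastid members this was psbN, at -1.93 in shade and -1.90 in strong shade on the log2 scale, with every phyA shade array below the phyA white light arrays and every WT shade array above the WT white light arrays. Among the nuclear partners in shade, the difference was -2.88 for NdhN, -1.51 for NdhL and -1.27 for the antenna gene LHCB4.3. In strong shade it was -3.29 for NdhN, -2.19 for NdhL, -1.60 for LHCB4.3, -1.37 for RCA, -0.91 for the photosystem II gene PSBY, -0.90 for ATPC1, -0.78 for the photosystem I gene PSAN and -0.73 for the photosystem II gene PSBW. For LHCB4.3 the WT and phyA means were 5.32 and 6.35 in white light, 4.25 and 4.02 in shade, and 4.50 and 3.93 in strong shade. Its genotypes thus differed more in white light, with 2 arrays each and no call, than in either shade.

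The calls of psbN, NdhN and NdhL in both lights and of RCA and LHCB4.3 in strong shade held whichever array was left out. Those of LHCB4.3 in shade (adjusted p up to 0.232), PSBY (0.062), ATPC1 (0.104), PSAN (0.143) and PSBW (0.189) were lost without 1 or more arrays.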

How the results depend on the processing

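Of 68 called member results, 28 kept their call under each of 28 other settings, and none reversed. With a limit of 1 on the size of the log2 difference as well the calls were 2 (WT shade), 0 (WT strong shade), 4 (phyA shade), 3 (phyA strong shade), 0 (phyA minus WT in shade) and 1 (in strong shade). Leaving out each array in turn gave 7 to 16 calls for WT shade, 8 to 15 for WT strong shade, 6 to 13 for phyA shade, 6 to 10 for phyA strong shade, 0 to 1 for phyA minus WT in white light, 2 to 6 in shade and 5 to 13 in strong shade, and 1 to 2 and 1 to 3 for the response differences in shade and strong shade. Cyclic loess gave 8 for phyA shade and 4 for phyA minus WT in shade. Fits on the compared groups alone gave 5 for phyA strong shade, 7 for phyA minus WT in strong shade and 2 for the shade response difference, from fewer arrays. For phyA minus WT in shade, the filter on dim probe sets gave 4, an eBayes trend 5 and array weights 8. Array weights gave 1 for phyA minus WT in white light. Without phyA shade 3 and phyA strong 3 the counts were 1 for the phyA step, 1, 5 and 9 for phyA minus WT in white light, shade and strong shade, and 3 for the strong shade response difference. Without phyA shade 1 and phyA strong 1, chosen after seeing the data, phyA minus WT in strong shade gave 3. The strong shade response difference gave 2 with median centring, cyclic loess, the dim filter, the trend, the replicate block and 16 added before log2, and 6 with array weights. The causes were not tested, and shares of all probe sets under settings other than the main fit are not given here. Median centring moved the median of all probe sets to 0.125 in WT strong shade, 0.127 in phyA shade and 0.142 in phyA strong shade.

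The replicate numbers shared by the groups did not pair the arrays: deviations of 36 same-numbered pairs correlated between -0.579 and 0.318 (median -0.0107), 7 of them above 0.1. With the replicate block the counts were 11 higher and 3 lower in WT shade, 12 and 1 in WT strong shade, 5 and 7 in phyA shade, 2 and 7 in phyA strong shade, and 2 and 11 lower for phyA minus WT in shade and strong shade.

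The 2 white light arrays per genotype limit every comparison with white light, oligo(dT) priming limits what a plastid intensity stands for, and lamp type cannot be told apart from the red to far-red ratio.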

Other observations

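The 5 probe sets outside the members whose 6 group means correlated most with the mean profile of the members, among 13470 single-gene probe sets, were AT2G46910 (r = 0.997), LIL3:2 (0.987), AT3G59440 (0.981), AT3G04410 (0.977) and AT4G04380 (0.976). These are descriptions over 6 means that share arrays and scaling. In the order named, the group means spanned 0.57, 0.69, 0.21, 0.3 and 0.11 on the log2 scale, where the median residual SD of all probe sets was 0.172. LIL3:2 codes for a light-harvesting-like protein.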
